A study of Mus musculus with 21 samples.

Results

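Open chromatin was compared between endothelial cells of mouse brain and of mouse liver, from 7 ATAC-seq libraries out of the 21 samples of the series. The members are the 4 brain and 3 liver ATAC libraries, chosen by their column names in the deposited count table. The 4 lung ATAC libraries of the same table stayed out of the test and are used below as levels only. All animals were C57BL/6J mice aged 2 to 4 months, with no treatment or transgene named. Brain and liver were digested with collagenase, dispase and DNase, brain alone passed through a myelin removal step, and live CD31+ cells without PDGFRβ or CD45 on their surface were sorted. The labels give neither the sex of the animals nor whether tissue was pooled, and they do not say that libraries of 1 tissue came from separate animals, so the p-values below reflect how much these libraries vary, and that variation may be technical.

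ATAC-seq uses a transposase that inserts sequencing adapters into DNA that is not packed away in nucleosomes, so that reads pile up at active promoters, enhancers and insulator sites. Brain endothelium forms the blood-brain barrier, with sealed junctions and carrier-mediated transport. Liver endothelium is mostly sinusoidal, with an open, fenestrated wall and a large scavenging capacity, and the sort keeps other liver endothelial cells as well. In bulk libraries, fewer cells with an open site and a less open site in every cell cannot be told apart.

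Peaks are named by position in mm9, counted from 1. The table pairs no gene with a peak, and no annotation or genome of that build was used here, so neither gene names nor sequences are given and the libraries could not be checked against marker genes. The companion RNA libraries of the same sort could be checked, on other libraries than those of ATAC. The 7 endothelial markers (Pecam1, Cdh5, Kdr, Tie1, Tek, Erg and Emcn) summed to 3783 to 4713 CPM (counts scaled to equal library totals) in the 3 brain RNA libraries and 4700 to 4827 CPM in the 3 liver RNA libraries. The 4 sinusoidal markers summed to 0.0918 to 3.90 CPM in brain and 5723 to 6613 CPM in liver, and the 4 brain endothelial markers to 8246 to 8645 CPM in brain and 42.2 to 67.3 CPM in liver. Of the 4 hepatocyte markers, 3 (Alb, Apoa1 and Cyp3a11) had 0 counts in brain, and the list summed to 195 to 527 CPM in liver; in brain the list held 46.1 to 961 CPM, all from Ttr, which choroid plexus also makes. The leukocyte and Kupffer cell list summed to 3.85 to 9.18 CPM in brain and 1.99 to 8.86 CPM in liver, mural markers to 15.7 to 114.9 CPM in brain and 0.866 to 2.22 CPM in liver, and neuronal and glial markers to 4.68 to 33.4 CPM in brain and 0 to 1.28 CPM in liver. The part of other cells in the chromatin results was not tested.

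Brain libraries were deeper than liver libraries. They held 17956240, 6700965, 5003580 and 6995574 counts in peaks, against 2162227, 2175575 and 1856763 in liver. Correlations of log2 CPM across tested peaks, which are not independent replicates, ran from 0.931 to 0.960 within brain, 0.842 to 0.863 within liver and 0.673 to 0.735 between the tissues. The biological coefficient of variation, the spread between libraries beyond counting error, was 0.281 in brain and 0.241 in liver.

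Open chromatin differed widely between the tissues. Of 60119 peaks, 54494 had enough counts to be tested, and the edgeR quasi-likelihood test called 17527 of them, or 32.2%, at a Benjamini-Hochberg adjusted p under 0.05 together with a change of 1 or more on the log2 scale. Brain was higher at 7593 peaks (13.9% of those tested) and lower at 9934 peaks (18.2%). The median called peak was 3.08-fold higher in brain or 3.66-fold higher in liver, and brain was lower by 8-fold or more at 1280 peaks and higher by that much at 258. At 36967 peaks no call was made, and 4368 of these passed the adjusted p but not the fold. The 4 brain and the 3 liver libraries did not overlap at 94.6% of the peaks called higher in brain and 88.9% of those called lower, against 43.6% of all tested peaks, 20.9% with brain above liver and 22.7% with brain below it. The first shares come partly from the call itself, which used the same libraries.

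**Figure D1:**
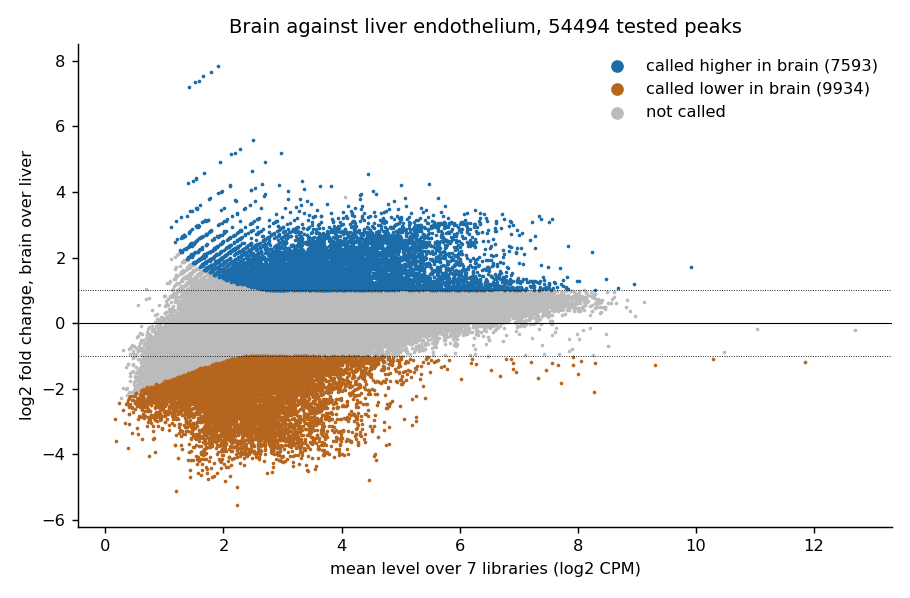
Each point is 1 of 54494 tested peaks, with its mean level over the 7 libraries in log2 CPM on the x axis and its log2 fold change, brain over liver, on the y axis. Blue points (7593) were called higher in brain and brown points (9934) lower, and the brown points lie mainly at low levels. The dotted lines mark a log2 fold change of 1 in either direction; the 6 points at the top left are the tested peaks with 0 counts in every liver library, whose fitted folds depend on the prior count.

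The split between the directions depended on how libraries were scaled. Scaling by the trimmed mean of M-values (TMM), used throughout unless said otherwise, put 43.3% of the calls on the brain side. Scaling by library totals alone called 4726 peaks higher and 12554 lower, so that the brain side held 27.3%, and it shifted the median of all peaks by −0.31 on the log2 scale. Offsets fitted along the level of the peaks by a loess curve called 8011 higher and 7413 lower, or 51.9%. Under all 4 scalings tried, 4457 peaks stayed higher in brain and 6723 stayed lower, which is 58.7% and 67.7% of those called with TMM. No peak called with TMM was called in the opposite direction under any of the 3 other scalings.

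The peaks with the largest fold changes were nearly silent in the other tissue. Those named first are the 10 called peaks in each direction with the largest fold among peaks whose mean log2 CPM reached 3 and whose tissues did not overlap; CPM of single peaks are scaled by TMM. The peak at chr1:170100695-170101235, 541 bases wide, had 34.9, 34.2, 37.1 and 31.1 CPM in the brain libraries, from 548, 241, 162 and 182 reads. The liver libraries had 2.48, 0.877 and 0.899 CPM there, from 6, 2 and 2 reads. Every brain library thus lay more than 10 times above every liver library, and the log2 fold change was 4.55 (SE 0.38, edgeR adjusted p = 1.70e-14). The next autosomal peak, at chr11:110861076-110861943, was taller, with 64.5, 71.0, 87.8 and 65.4 CPM in brain and 5.79, 0.877 and 4.49 CPM in liver (log2 fold change 4.26 ± 0.34 SE; adjusted p = 6.05e-15 by edgeR). At chr17:61664907-61665551, brain library 3 stood above the other brain libraries with 79.4 CPM, against 40.4, 38.7 and 47.7 CPM in libraries 1, 2 and 4, and liver had 1.66, 3.07 and 3.59 CPM (log2 fold change 4.21 ± 0.35 SE; adjusted p = 2.11e-14 by edgeR).

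The other peaks of this top 10 lay on chromosomes 1, 2, 5, 6 and 9 and, with a pair of peaks, on X. The pair on X was chrX:55336202-55337092, at 11.9 to 19.9 CPM in brain and 0 to 1.24 CPM in liver, and chrX:104610042-104610613, at 28.4 to 37.5 CPM and 0.877 to 4.14 CPM. Log2 fold changes over the 10 ran from 3.93 to 4.55 with SEs of 0.34 to 0.55. Reads in liver were few, from 0 to 14 per peak and library, so the exact size of these folds rests on small counts. Lung was low at the same places: at all 10 peaks every lung library lay below every brain library, and the lung values spanned 0 to 6.29 CPM. All 10 calls held under each alternative that tested the peak.

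The largest fold on the liver side was at chr14:101288929-101289449, 521 bases wide. It had 0.702, 2.13, 4.12 and 1.71 CPM in brain, from 11, 15, 18 and 10 reads, and 44.3, 73.7 and 37.7 CPM in liver, from 107, 168 and 84 reads. The lowest liver library stood far above the highest brain library (log2 fold change −4.79 ± 0.36 SE; adjusted p = 5.29e-12 by edgeR). Lung was in between here, at 16.8, 21.6, 27.96 and 27.1 CPM. At chr10:56164284-56164687, brain had 0.765, 0.992, 2.97 and 0.512 CPM and liver 29.0, 34.2 and 15.7 CPM (log2 fold change −4.50 ± 0.39 SE; adjusted p = 3.14e-13 by edgeR), and lung had 0.645 to 4.94 CPM. The peak at chr1:188223621-188224035 had the tightest liver values, 20.7, 22.8 and 22.9 CPM, against 0.510, 1.28, 1.37 and 1.54 CPM in brain (log2 fold change −4.36 ± 0.38 SE; adjusted p = 4.82e-14 by edgeR). The other 7 lay on chromosomes 5, 8 (a pair), 10, 16 (a pair) and X, among them chr8:3736965-3737417 and chr5:15823398-15823859, with 22.8, 33.8 and 21.6 CPM and 35.6, 30.3 and 18.4 CPM in liver. In brain those 2 peaks had 0.255 to 2.29 CPM and 0.255 to 2.73 CPM. Log2 fold changes over the 10 ran from −4.79 to −4.22, and each call held under every alternative that tested the peak. In 9 of these 10 peaks brain library 1, the deepest, had the lowest value, and the lung libraries lay below every liver library in all 10.

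**Figure D2:**
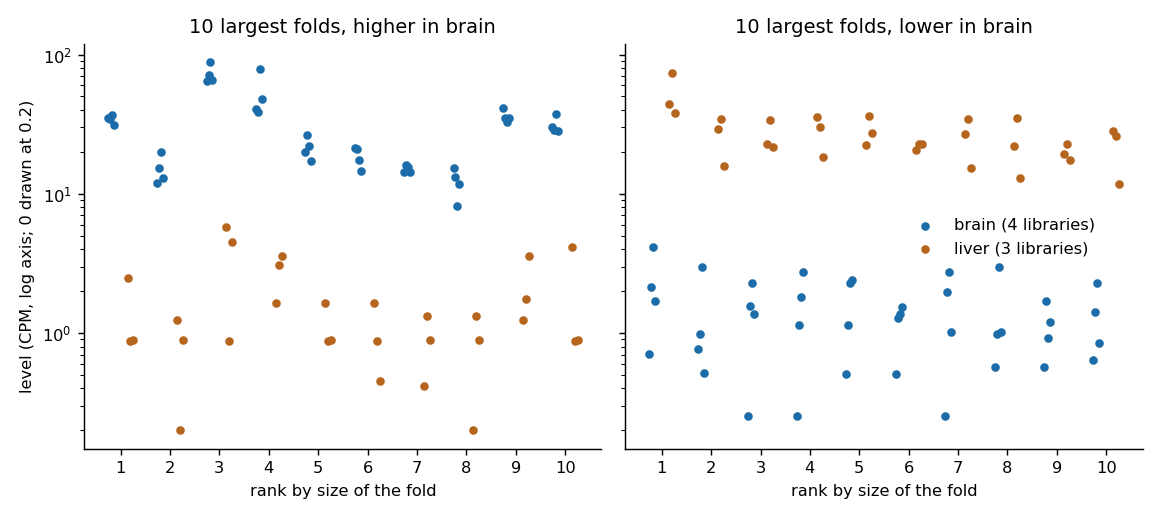
CPM on a log axis in each brain library (blue, 4) and each liver library (brown, 3) for the 10 largest folds higher in brain (left) and lower in brain (right), ordered by the size of the fold; values of 0 are drawn at 0.2. The tissues do not overlap at any of the 20 peaks, which is how they were chosen; liver stays at 5.79 CPM or less on the left and brain at 4.12 CPM or less on the right.

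Among peaks called higher in brain, the 5 with the highest level in brain were wide, from 1066 to 3109 bases. The tallest, at chr11:3045283-3046348, had 1078, 977, 2011 and 1459 CPM in brain and 459, 374 and 422 CPM in liver (log2 fold change 1.72 ± 0.40 SE; adjusted p = 0.000350 by edgeR). The largest fold of the 5 was at chr3:39118766-39120037, with 366, 341, 598 and 499 CPM in brain and 110, 111 and 78.2 CPM in liver (log2 fold change 2.17 ± 0.34 SE; adjusted p = 2.70e-07 by edgeR). Lung had 62.5 to 104.8 CPM at that peak, close to liver, and 197 to 421 CPM at the tallest one. At the 3 others, chr9_random:54257-57365, chr4:101319550-101320945 and chr19:21346078-21347610, brain averaged 654 ± 149, 526 ± 185 and 479 ± 146 CPM and liver 285 ± 103, 251.2 ± 60.5 and 187 ± 37.1 CPM (SD, n = 4 and n = 3). At these 3 peaks lung had 531 to 909 CPM at chr9_random, within or above the brain range, 245 to 476 CPM at chr4 and 231 to 363 CPM at chr19. Brain library 2 was the lowest brain library at all 5. With offsets by level the peak on chr3 kept its call with a log2 fold change of 1.47, and the 4 others lost it with log2 fold changes of 0.29 to 0.84. The calls at chr9_random and chr4 were also lost under library totals and without liver library 3, and that at chr4 without brain library 3 or 4. Among the alternatives that tested each peak, the call at chr9_random held in 11 of 18 and that at chr4 in 10 of 19.

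The 5 tallest peaks called lower in brain varied with the library as well as with the tissue. At chr12:3109784-3110221 brain had 26.6, 99.8, 249.5 and 143.8 CPM and liver 549, 458 and 656 CPM (log2 fold change −2.10 ± 0.50 SE; adjusted p = 0.00313 by edgeR). Lung spanned 49.96 to 584 CPM there. At all 5 peaks the lung libraries of 1335711 and 1244653 counts were higher than the lung libraries of 5857763 and 6046832 counts, and liver library 3, the shallowest of the liver libraries, was the highest liver library. Brain library 1, the deepest, was the lowest of the brain libraries at 4 of the 5. Brain library 3, the shallowest of them, was the highest brain library at only 1 of the 5. At the peaks on chromosomes 2, 9 and 15 named below, brain library 2 was the highest. The part of depth in these values was not tested. Masking of regions prone to artefacts is not given in the sources used here. Whether any of the peaks or clusters named lies in such a region was not tested. The tallest of all, at chr2:98506374-98507519, had 1291, 3646, 2763 and 1805 CPM in brain and 5234, 4786 and 6151 CPM in liver, with a log2 fold change of −1.18 (SE 0.48, edgeR adjusted p = 0.0407). Without any single one of brain libraries 1, 3 and 4 or of the 3 liver libraries it missed the adjusted p, while the log2 fold change stayed between −1.27 and −1.01, with SEs from 0.48 to 0.64. Its neighbour at chr2:98502381-98503132 (499, 1241, 949.7 and 649 CPM in brain, 1785, 1569 and 2008 CPM in liver, log2 fold change −1.10) lost its call without brain library 1 or 4 or liver library 1 or 3, where its log2 fold change lay between −1.07 and −0.95. The remaining 2 peaks, at chr9:35112675-35113237 and chr15:74915905-74917538, averaged 396 ± 231 and 200.2 ± 113 CPM in brain and 949 ± 186 and 461.9 ± 85.1 CPM in liver (SD, n = 4 and n = 3). With offsets by level these 2 peaks and the pair on chromosome 2 missed the adjusted p while their fitted folds were larger, with log2 fold changes from −1.89 to −1.77 and SEs from 0.78 to 0.91. With library totals the peak on chromosome 15 missed it as well, at −1.47 (SE 0.52). Of 19 alternatives, the call at chr2:98506374-98507519 held in 9 and that at chr2:98502381-98503132 in 12.

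Strong peaks without a difference were named as well, and their likeness between the tissues follows from how they were chosen. The 3 with the highest level, no call and an absolute log2 fold change under 0.1 were chr1:13362354-13364765, chr14:119336607-119337656 and chr16:58408061-58409162. The first of them had 220.0, 129.9, 186 and 229.6 CPM in brain and 196, 212 and 143 CPM in liver, with a log2 fold change of 0.06 (SE 0.29, edgeR adjusted p = 0.879). Over these 3 peaks brain ranged from 116 to 254 CPM and liver from 129 to 256 CPM. An absolute log2 fold change under 0.25 was found at 9089 of the tested peaks (16.7%).

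The direction of the calls moved with the level of a peak. Peaks were ranked by their level, taken as the mean of both tissues' mean log2(CPM + 0.5), so that each tissue weighed the same, and cut into 10 equal groups. In the highest group 591 of 5450 peaks (10.8%) were higher in brain and 34 (0.624%) lower, and the median log2 fold change was 0.53. Over all tested peaks the shares were 13.9% and 18.2%, so this group had fewer calls of both directions. The share higher in brain was largest in the eighth group, at 25.4%. In the lowest group 341 (6.26%) were higher and 899 (16.5%) lower, with a median of −0.96. In the upper tertile of level, brain was higher at 3411 peaks and lower at 999, and this majority was also found with library totals (2304 and 1523) and with offsets by level (2064 and 1556). In the lower tertile brain was higher at 1286 and lower at 4245, and at 606 and 5027 with library totals, but at 2721 and 2130 with offsets by level, so there the balance turned with the scaling.

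The brain libraries differed from each other in this trend. In the lowest group of levels the median CPM was 0.765, 2.27, 1.60 and 1.02 in the brain libraries and 2.48, 2.19 and 2.70 in the liver libraries. Brain library 2 thus stood at the liver level, while brain library 1 lay well below it. The median log2 ratio to the liver mean ran from −1.26 in the lowest group to 0.66 in the highest for brain library 1, from −0.99 to 0.77 for library 4, from −0.47 to 0.57 for library 3 and only from −0.02 to 0.11 for library 2. The 10% of peaks with the most counts held 57.2%, 48.8%, 57.6% and 60.2% of the reads in brain and 48.2%, 51.7% and 43.4% in liver (exact permutation test, two-sided, p = 0.0857, n = 4 and n = 3). Peaks below the median level held 6.27%, 11.2%, 7.94% and 6.24% in brain and 12.8%, 10.6% and 14.8% in liver (exact permutation test, p = 0.0857). The groups overlapped in both measures only between brain library 2 and liver library 2. Neither measure passed a threshold of 0.05, and the smallest p that 7 libraries allow is 0.0286. The part that this spread of reads between strong and weak peaks plays in the calls was not tested. Without brain library 2 and liver library 3, the pair with the flattest spread and left out after the data were seen, 6717 peaks were higher and 10494 lower.

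**Figure D3:**
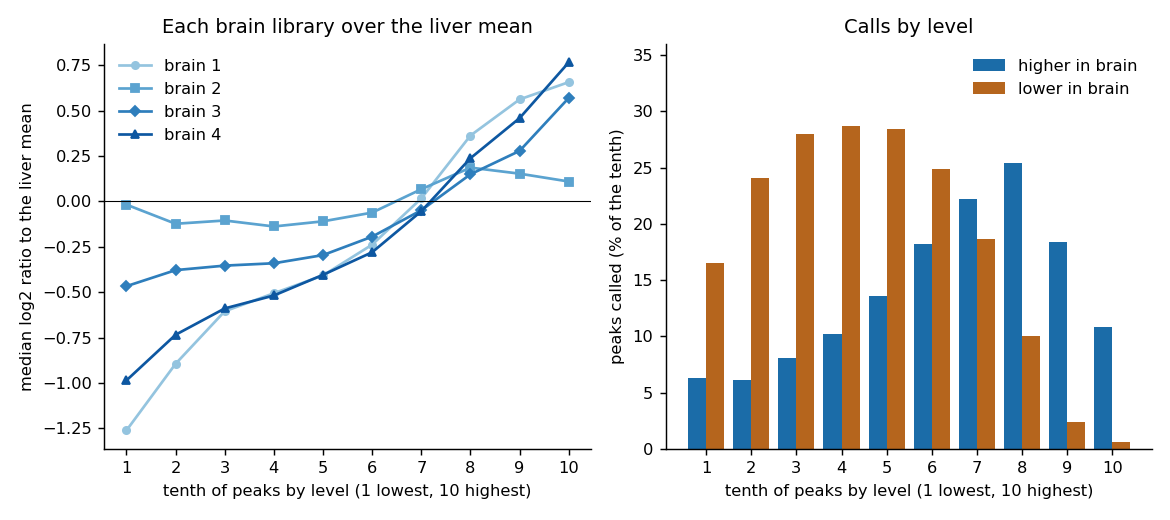
Left, the median log2 ratio of each brain library to the mean of the 3 liver libraries in each of 10 groups of peaks from the lowest to the highest level; right, the percentage of each group called higher (blue) or lower (brown) in brain. Brain libraries 1, 3 and 4 climb from below 0 to above 0, brain library 2 stays between −0.14 and 0.19, and calls lower in brain fall from 28.7% in the fourth group to 0.624% in the highest.

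Peaks called higher in brain were wider than those called lower. Their median width was 572 bases (quartiles 435 and 746) against 367 bases (281 and 479) for peaks called lower and 437 bases for all tested peaks. Of the 1583 tested peaks over 1200 bases, 228 (14.4%) were higher and 17 (1.07%) lower in brain. Over all tested peaks the shares were 13.9% and 18.2%, so the widest peaks differed mainly in having few lower calls. Of the 11610 up to 300 bases, 483 (4.16%) were higher and 3049 (26.3%) lower. The share higher in brain was largest, at 23.3%, among peaks over 500 and up to 800 bases. Wide peaks are also the taller ones. Within tertiles of level the difference was smaller: 347 against 301 bases in the lowest, 500 against 390 in the middle and 757 against 612 in the highest. Peaks not called had medians of 296, 397 and 764 bases there. In the highest tertile, peaks higher in brain were thus no wider than uncalled ones. The difference between the directions also depended on the scaling, with medians of 466 against 399 bases with offsets by level and 600.0 against 375 with library totals. Per kilobase of peak, the median level at peaks higher in brain was 30.5 CPM in brain and 9.34 CPM in liver, and at peaks lower in brain 6.27 CPM in brain and 27.7 CPM in liver.

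Chromosome X stood apart from all 19 autosomes. Of its 1082 tested peaks, 305 (28.2%) were higher and 71 (6.56%) lower in brain, while on single autosomes 10.7% to 17.6% were higher and 15.2% to 20.3% lower. The median log2 fold change was 0.62 on X and between −0.15 and 0.06 on the autosomes. Reads on X made up 2.21%, 1.95%, 2.39% and 2.46% of the counts in brain and 1.79%, 1.88% and 1.56% in liver. The tissues did not overlap, but the difference did not pass a threshold of 0.05 (exact permutation test, two-sided, p = 0.0571, Benjamini-Hochberg adjusted p = 0.0857 over 7 shares, n = 4 and n = 3). In lung the share was 1.82% to 2.30%.

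The shift on X was seen at every level and in each brain library. Its median log2 fold change was 0.70, 0.46 and 0.68 in the lowest, middle and highest tertile of level, against −0.73, −0.31 and 0.40 for autosomal peaks. Against the liver mean, X peaks lay above autosomal peaks by 0.73, 0.28, 0.75 and 0.92 (log2) in the 4 brain libraries. The difference between the medians of X and of the autosomes was 0.70 with TMM, 0.69 with library totals and 0.52 with offsets by level. Library totals called 188 X peaks higher and 95 lower in brain, and offsets by level 307 higher and 60 lower.

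Chromosome Y held 4 tested peaks, and every library had reads in all of them. The only call was at chrY:622307-623299, with 30.2, 20.4, 30.7 and 31.3 CPM in brain and 17.0, 13.2 and 8.54 CPM in liver (log2 fold change 1.12 ± 0.27 SE; adjusted p = 0.000632 by edgeR). It held under 11 of the 18 alternatives that tested it. Among others, it was lost with library totals, with offsets by level, at a mean of at least 20 counts, after thinning and without liver library 3. The other tall Y peaks, at chrY:346531-347267 and chrY:581856-582500, had log2 fold changes of 0.83 and 0.87 and no call, and the weak peak at chrY:2397346-2397560 had −1.10 and no call. With library totals that weak peak was the only one called on Y, lower in brain (log2 fold change −1.36 ± 0.51 SE; adjusted p = 0.0320 by edgeR). The sex of the animals is not given, and its part in the values on X and Y was not tested. Of 111 tested peaks on random or unplaced sequences, 7 (6.31%) were higher and 44 (39.6%) lower in brain. Over all tested peaks the shares were 13.9% and 18.2%. Those sequences took 0.199% to 0.270% of the counts in brain and 0.282% to 0.361% in liver (exact permutation test, p = 0.0286, adjusted p = 0.0667 over 7 shares).

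**Figure D4:**
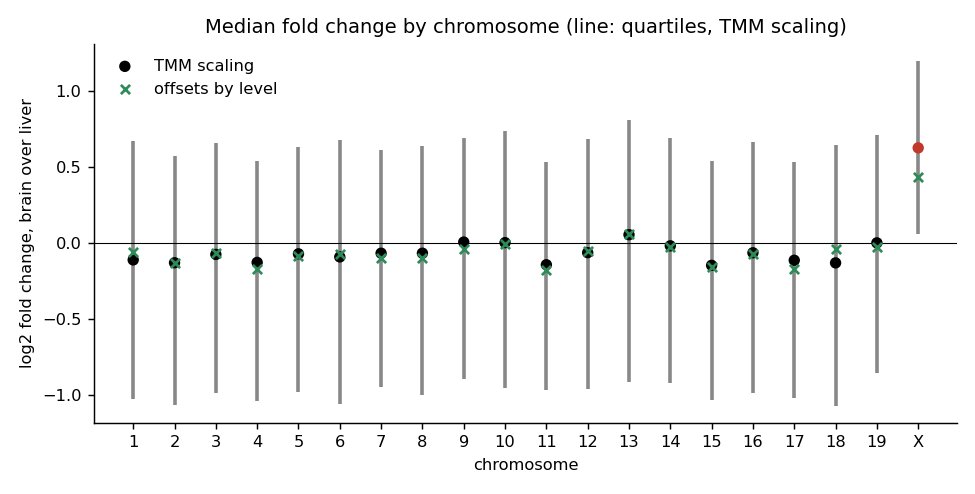
Median log2 fold change, brain over liver, of the tested peaks of each chromosome (points, red for X) with the quartiles over peaks (grey lines), both with TMM scaling, and the median with offsets by level (green crosses). The 19 autosomes lie between −0.15 and 0.06 and X at 0.62 with TMM scaling, and X remains above them, at 0.43, with offsets by level.

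Neighbouring called peaks mostly shared their direction. Peaks of the same direction separated by at most 10 kb formed 1182 clusters higher in brain, holding 2793 peaks or 36.8% of those called higher, and 1305 clusters lower in brain, holding 3076 peaks or 31.0%. How many clusters calls placed without regard to position would form was not tested. Both peaks were called in 14.1% of all neighbouring pairs up to 1 kb apart and in 11.3% of those over 100 kb apart. Among neighbouring tested peaks up to 1 kb apart that were both called, 672 of 736 pairs (91.3%) had the same direction. The share was 84.2% at 1 to 5 kb, 77.5% at 10 to 25 kb and 69.2% at over 100 kb. If the directions of neighbours were unrelated, the numbers of calls in these pairs would give 50.1% to 54.8%. Neighbouring peaks also share their level and chromosome, which move with the direction, and the part of these was not tested. Peaks higher in brain had another tested peak nearby more often: 72.9% had one within 10 kb, against 62.6% of peaks lower in brain and 64.6% of peaks not called.

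**Figure D5:**
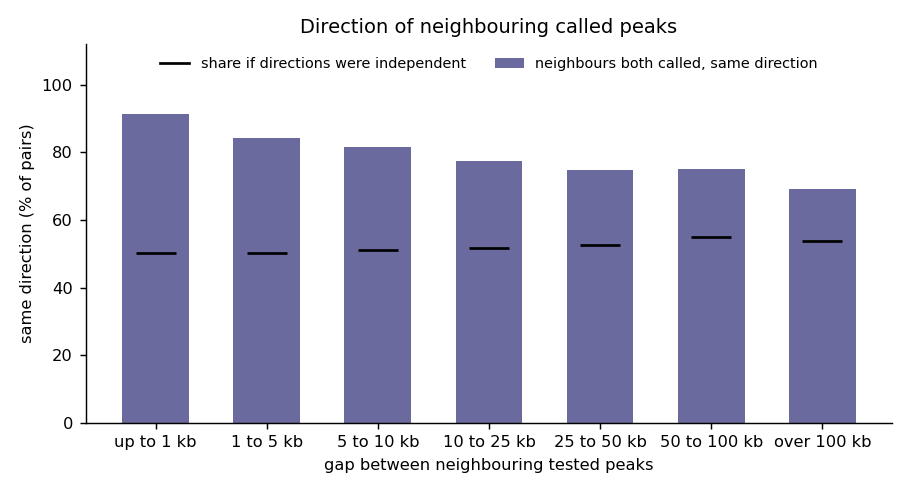
Pairs of neighbouring tested peaks, both called, by the gap between them; bars show the percentage with the same direction and black lines the percentage that unrelated directions would give. The bars fall from 91.3% at gaps of up to 1 kb to 69.2% at over 100 kb, while the lines lie between 50.1% and 54.8%.

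The largest cluster of all was lower in brain. It held 11 called peaks and 1 uncalled peak over 43.7 kb at chr12:112664328-112708041, with log2 fold changes from −3.72 to −1.25. Summed over the 11 peaks, brain had 19.2, 27.9, 43.5 and 26.5 CPM and liver 111, 122 and 107 CPM. Lung was nearer to liver, at 73.8 to 89.7 CPM. All 11 peaks were also called with library totals and 10 with offsets by level. At chr11:117792184-117817336, a cluster of 7, brain had 27.9, 34.3, 31.8 and 21.7 CPM and liver 81.5, 82.9 and 90.3 CPM. Lung exceeded both there, at 108 to 198 CPM, and offsets by level called 4 of the 7.

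The 3 remaining large liver clusters, of 7 peaks each, differed strongly between brain libraries. At chr5:14940314-14964133 brain had 13.2, 58.7, 47.3 and 27.7 CPM and liver 117, 61.8 and 124 CPM. At chr5:15137684-15159508 brain had 9.18, 54.4, 40.0 and 36.04 CPM and liver 103, 76.8 and 104 CPM. At chr9:3015220-3036244 the sums were far higher, with 149, 479.8 and 513 CPM in brain libraries 1, 2 and 3, 286 CPM in brain library 4, and 1077, 956 and 1219 CPM in liver. Brain library 1 was the lowest in all 3 clusters, and the cluster on chromosome 9 was high in the lung libraries of lowest depth, at 986 and 1320 CPM, against 262 and 455 CPM in the deeper ones. Library totals called 5 to 7 and offsets by level 4 to 6 of the 7 peaks in each of these clusters.

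The largest cluster higher in brain held 7 called peaks over 32.0 kb at chr10:101961375-101993329 and had 123.7, 129, 169 and 126 CPM in brain and 36.8, 30.3 and 30.6 CPM in liver. Its log2 fold changes ran from 1.27 to 3.13. The 4 others held 6 peaks each, at chr14:122852682-122890472, chr16:45342701-45376010, chr9:53619023-53643454 and chr1:186684123-186707178. Of these chr14 had the highest sums, 463, 291, 326 and 383 CPM in brain and 80.3, 69.7 and 102.9 CPM in liver, but only 3 of its 6 peaks were also called with library totals. In the other 4 clusters higher in brain, library totals called 6 of 7, 6 of 6, 5 of 6 and 6 of 6 peaks, and offsets by level called 5 or more in each of the 5 clusters. Lung stayed below brain in all 5 clusters, from 14.8 to 32.1 CPM at chr9, where brain had 158, 135, 125 and 136 CPM, to 50.5 to 82.9 CPM at chr1, where brain had 254.9, 203, 247 and 251 CPM. None of these 10 clusters held a peak called in the opposite direction.

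Lung levels, which did not enter the calls, compared unevenly with brain and liver. At peaks higher in brain, the median CPM was 17.98, 16.4, 16.7 and 16.9 in brain, 4.16 to 5.00 in lung and 5.89, 4.50 and 5.26 in liver, with all 11 libraries scaled together. On the log2 scale lung was nearer to liver, or below it, at 6165 of these 7593 peaks (81.2%). At 3960 of them (52.2%) lung lay below both tissues, and at 4.53% above both. At peaks lower in brain the medians were 1.37, 2.78, 2.82 and 2.05 CPM in brain, 4.54 to 5.16 CPM in lung and 9.26, 8.99 and 9.21 CPM in liver. There lung was nearer to brain, or below it, at 4648 of 9934 peaks (46.8%). By single lung library, the share nearer to the tissue with the lower level was 74.7% to 79.7% at peaks higher in brain and 42.1% to 49.8% at peaks lower in brain. Choosing peaks for a difference between brain and liver favours chance extremes in these 2 tissues and not in lung, so the shares are a description.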

How the data were processed

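The authors deposited the ATAC data as raw counts over 1 merged set of peaks, in a table with 12 header fields over 18 columns, so the last 11 names were taken for the last 11 columns. RNA values, used for markers, were raw counts per gene, per the file headers. The submitters' processing notes name MACS2, Bowtie2, Picard and bedtools, TopHat, SAMtools 1.10.2 and HTSeq 0.6.1, besides Cell Ranger 1.2.0, and the builds mm9 and mm10, tied to no assay; peak names with _random sequences occur in mm9. Shifting of ATAC reads, removal of duplicates and masking of regions prone to artefacts are not given in the sources used here. The members, lists and rules were chosen with earlier results of these data known.

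The 4 brain and 3 liver libraries were fitted alone in edgeR 4.0.16 (R 4.3.3): filterByExpr, TMM, robust quasi-likelihood test, adjusted over 54494 peaks. Shares of reads were compared by exact permutation over the 35 assignments of libraries. Levels of lung were scaled with all 11 libraries. A pseudocount of 0.5 CPM was used for levels. Peaks named were, per direction, the 10 largest folds (mean log2 CPM of at least 3, no overlap), the 5 highest levels and 5 largest clusters, 3 strong peaks without a difference and calls on Y. A set of 19 alternatives, DESeq2 1.42.0 among them, was tried. The 5625 untested peaks held 0.448% of brain and 1.23% of liver counts.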

Additional observations from a re-analysis of the deposited data

Results flagged for a closer look

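Of 41 quantities screened for a brain library far from the other 3, the CPM at chrY:622307-623299 was picked out. Brain library 2 had 20.4 CPM, against 30.2, 30.7 and 31.3 CPM in brain libraries 1, 3 and 4, so that the gap to the nearest library took 0.899 of the group's range. Chance picks out about 1 in 20 such groups.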

How the results depend on the processing

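A test against a log2 fold change of 1 (glmTreat) called 7343 peaks, 3138 higher and 4205 lower in brain, in 344 and 416 clusters. Library totals gave 4726 higher, in 608 clusters. Thinning to the shallowest library gave 5055 higher, in 661 clusters. A mean of at least 20 counts, which tested 39086 peaks, gave 6518 lower, with 710 clusters higher and 674 lower. Clusters lower in brain numbered 2057 with gaps of up to 50 kb. The other alternatives, DESeq2 among them (7830 higher, 9650 lower), kept these counts within 1.5 times and the shift on X between 0.45 and 0.85. Leaving out 1 library gave 14856 to 17919 calls, 6517 to 8090 higher and 7988 to 10956 lower, in 941 to 1194 and 969 to 1448 clusters. The cause of these moves was not tested beyond the fewer peaks tested. No named peak changed sign with a call; 55 results of named peaks fell short of the call. Deviations of same-numbered brain and liver libraries correlated at −0.02, −0.17 and −0.04, and those of brain library 2 and liver library 3 at 0.17. With so few libraries, these values cannot tell whether animals or batches were shared. With replicate number as a block, 6786 peaks were higher and 7431 lower. Brain library 4 has no liver library of its number and adds nothing to the difference in that fit. Leaving it out gave 6517 higher and 8339 lower. Liver libraries held 1856763 to 2175575 counts. By single library, 849, 1754 and 830 peaks had 0 counts in liver libraries 1, 2 and 3. In brain libraries 1 to 4 these numbers were 164, 23, 579 and 1026. The part of depth in these zeros was not tested. At 14 peaks all 3 liver libraries had 0 counts. There a floor of 3 counts, for counting error only, is 0.484 CPM by library totals.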

Other observations

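Windows of 1 Mb mostly mixed both directions. Of 1668 windows with at least 10 tested peaks, 1374 (82.4%) held calls higher and calls lower in brain, 128 held no peak lower in brain and 170 no peak higher. Some windows were one-sided: at chr13:26000001-27000000, 18 of 23 tested peaks were higher in brain and 0 lower (median log2 fold change 1.88), and at chr5:81000001-82000000, 10 of 12 were higher and 1 lower (2.09). At chr8:118000001-119000000, 0 of 14 were higher and 9 lower in brain (−2.43), and at chr15:40000001-41000000, 1 of 11 was higher and 8 lower (−2.48). These windows were chosen after their values were seen.

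The tallest peak with 0 counts in every liver library was chr9:86268229-86268431, with 61, 29, 39 and 21 reads in the brain libraries. Scaled by library totals and not by TMM, it was at least 8.45-fold higher in brain against a floor of 3 counts over the 3 liver libraries. No peak of the table had 0 counts in all 4 brain libraries.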
